A study of Mus musculus with 17 samples.

Results

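The genes described here are 32 genes of neural crest cells, neurons and glia, listed by symbol and found in all 32 cases among the 24432 gene IDs of an expression table of the embryonic mouse kidney. They fall into 8 genes of glia and neural crest (Sox10, Foxd3, S100b, Fabp7, Erbb3, Cdh19, Ednrb and Ngfr), 14 genes used by neurons of many kinds (Elavl4, Elavl3, Tubb3, Stmn2, Stmn3, Stmn4, Gap43, Nefl, Nefm, Snap25, Syt1, Mapt, Ina and Prph), 8 genes of noradrenergic cells (Phox2a, Th, Dbh, Ddc, Chga, Chgb, Hand2 and Isl1) and 2 receptors for ligands of the GDNF family (Gfra2 and Gfra3). RNA was sequenced from whole dissected kidneys at E12.5, all of mixed strain. Beta-catenin, the intracellular effector of Wnt signalling, was made resistant to breakdown by removal of exon 3 from an allele of Ctnnb1. In 5 libraries of genotype Ctnnb1-delta3 c/+;Foxd1 the Cre recombinase came from the stromal driver Foxd1 (here Foxd1-Cre), and in 3 libraries of genotype Ctnnb1-delta3 c/+;Six2 it came from the nephron progenitor driver Six2 (here Six2-Cre). The remaining 9 libraries were wild type, and no group is labelled as carrying a Cre driver or the Ctnnb1 allele alone.

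Neural crest cells leave the dorsal neural tube and give rise to the sympathetic neurons, adrenal chromaffin cells and glia of the trunk. Sympathetic axons follow arteries into the kidney and release noradrenaline, which tyrosine hydroxylase (Th), aromatic amino acid decarboxylase (Ddc) and dopamine beta-hydroxylase (Dbh) make in successive steps from tyrosine. The cell bodies of these neurons lie in ganglia outside the kidney, and a dissected kidney can carry pieces of ganglion or adrenal gland on its surface. In bulk RNA a gene can be low because fewer cells of a type were present or because each cell held less of its RNA, and the values below cannot tell these apart.

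Values are FPKM, fragment counts scaled to transcript length and library size, as deposited. The libraries formed 2 sets: Foxd1-Cre 1 to 5 and wild types 1 to 6 had 5312 to 5807 genes at 0 and about 28200000 to 37200000 reads as read off the smallest steps between values, while Six2-Cre 1 to 3 and wild types 7 to 9 had 7590 to 7891 genes at 0 and about 5400000 to 5900000 reads. For a transcript of 1 kilobase, 1 read was worth 0.0269 to 0.0355 FPKM in the first set and 0.170 to 0.186 FPKM in the second. Foxd1-Cre was therefore set against wild types 1 to 6 and Six2-Cre against wild types 7 to 9. No wild type was shared between the comparisons. Changes were tested with limma on log2(FPKM + 1), a scale that understates the change of genes with low values, over all genes at 1 FPKM or more in at least 3 of the 17 libraries, and a gene is said to rise or fall where the p-value adjusted by the Benjamini-Hochberg method over all genes tested was under 0.05. This filter kept 14014 genes and 24 of the 32 members. Of those 24, 13 passed in the wild types alone and 11 (Stmn3, Snap25, Syt1, Prph, Phox2a, Th, Dbh, Chga, Chgb, Hand2 and Isl1) passed only because mutant libraries were counted, so counts over the 24 lean toward rises, and counts over all 32 without the filter are given beside them. The labels do not say that replicates came from separate embryos, and the p-values may measure technical spread.

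In wild-type kidneys the members spanned a wide range of levels. Ngfr, the low-affinity receptor for neurotrophins, had the highest mean of the 32 in both sets, at 29.8 FPKM in the first (SD 4.8, n = 6) and 24.4 FPKM in the second (SD 3.24, n = 3). In the first set Gap43, a growth cone protein, followed at 11.4 FPKM (SD 1.69, n = 6) and Stmn2, a regulator of axonal microtubules, at 10.2 FPKM (SD 0.591, n = 6), and these neighbours overlapped. In both sets 13 of the 32 members had a mean of 1 FPKM or more, among them Ddc as the sole noradrenergic gene. The genes that most sharply mark glia and early crest were all low. Sox10, the transcription factor that maintains glial and crest cells, had a mean of 0.428 FPKM in the first set (SD 0.319, n = 6) and 0.319 FPKM in the second (SD 0.252, n = 3), and Foxd3, S100b and Cdh19 were under 1 FPKM in every one of the 17 libraries. Th was the lowest of all 32 in both sets, from 0 to 0.192 FPKM in wild types 1 to 6 and from 0 to 0.1 FPKM in wild types 7 to 9. Ngfr, Ednrb and Erbb3 are also made by kidney cells that do not come from the crest, so their higher levels do not show how much crest RNA the kidneys held.

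With stromal beta-catenin, 9 of the 24 members tested rose and 2 fell, where 8.45% and 4.82% of all 13996 genes tested rose and fell. Among all 32 members without the filter 8 rose and 2 fell, against 6.18% and 3.47% of 20955 genes. Rescaling each library to the same total moved the calls over all genes from 1182 higher and 674 lower to 1231 higher and 408 lower, and setting each library to the same median gave 1010 higher and 997 lower. The members' counts were 9 and 2 under both rescalings. The median change of the 24 members was 0.38 on the log2 scale beside -0.01 for all genes, and over all 32 without the filter it was 0.23. With beta-catenin active in nephron progenitors, 16 of the 24 rose and 1 fell, where 7.93% and 5.84% of 13828 genes rose and fell. Without the filter the counts among all 32 were again 16 and 1, against 5.58% and 3.69% of 18757 genes. The median change of the 24 was 0.88, beside -0.01 for all genes, and that of all 32 without the filter was 0.79. Leaving out 1 library took the Six2-Cre count of rises to between 9 and 14. It was 9 without Six2-Cre 3, 9 without wild type 7 and 10 without wild type 9. Over all genes the rises then numbered 568 of 13805, 710 of 13814 and 885 of 13812. Of the 13 members that passed the filter in the wild types alone, 4 rose and 2 fell in Foxd1-Cre kidneys and 7 rose and 1 fell in Six2-Cre kidneys. By range alone, 7 of the 24 lay wholly above their wild types in Foxd1-Cre and 2 wholly below, where 6.89% and 3.8% of all genes tested did. In Six2-Cre 19 lay above and 2 below, where with 3 libraries against 3 the shares of all genes were 18% and 17.7%. The filter builds part of this in: all 11 members that passed only with mutant libraries lay above in Six2-Cre, while of the 13 kept by the wild types alone 8 lay above and 2 below. Of those 13, 4 lay above and 2 below in Foxd1-Cre. Over all 32 members the counts were 22 above and 2 below in Six2-Cre and 7 above and 2 below in Foxd1-Cre. Both comparisons called rises in Ednrb, Tubb3, Gap43, Syt1, Th, Dbh and Hand2 and a fall in Ngfr, while Stmn2 was called in opposite directions.

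**Figure D1:**
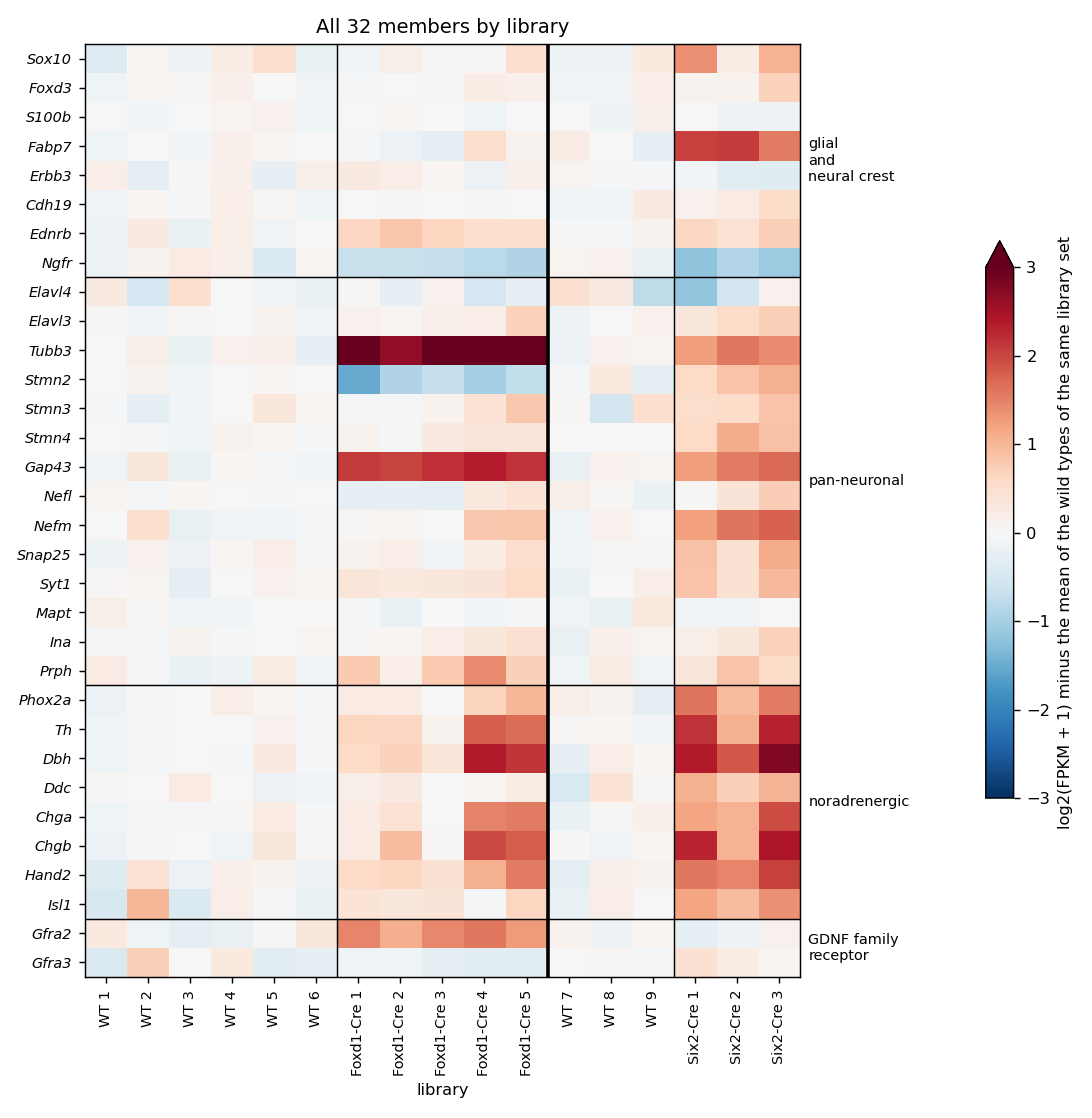
All 32 members (rows, grouped by role) in all 17 libraries (columns), each coloured by log2(FPKM + 1) minus the mean of the wild types of the same library set, from blue for lower to red for higher. Tubb3 and Gap43 are red in all 5 Foxd1-Cre libraries, the noradrenergic block is red in all 3 Six2-Cre libraries, Th, Dbh, Chga and Chgb are red in Foxd1-Cre 4 and 5, and Ngfr is blue in all 8 mutant libraries.

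Among the 4 glial and crest genes tested no common change was seen. In Foxd1-Cre kidneys 1 of the 4 tested rose (Ednrb) and 1 fell (Ngfr), with a median change of 0.07, and in Six2-Cre kidneys 2 rose (Fabp7 and Ednrb) and 1 fell (Ngfr), with a median of 0.17. The shares of all genes tested that rose and fell were 8.45% and 4.82% in Foxd1-Cre and 7.93% and 5.84% in Six2-Cre. The remaining 4 members of this group did not pass the filter. Over all 8 without it the median changes were 0.04 in Foxd1-Cre and 0.30 in Six2-Cre.

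Ngfr (ENSMUSG00000000120, GRCm38 chromosome 11, 95568818 to 95587735, minus strand, no overlapping gene) was at 18.0, 18.2, 17.7, 16.4 and 15.3 FPKM in Foxd1-Cre 1 to 5, against a lowest value of 21.8, a median of 31.3 and a highest of 35.0 FPKM in wild types 1 to 6. It was at 9.92, 12.8 and 10.9 FPKM in Six2-Cre 1 to 3, against 25.8, 26.8 and 20.7 FPKM in wild types 7 to 9. Every mutant library lay below every wild type of its set. The fall was -0.75 ± 0.11 (SE) on the log2 scale in Foxd1-Cre (adjusted p = 0.000515) and -1.06 ± 0.13 in Six2-Cre (adjusted p = 0.00461). The difference between the 2 falls was 0.31, with a 95% confidence interval from -0.04 to 0.66, and was not called.

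Ednrb, the endothelin B receptor that migrating crest cells need and that endothelial cells also carry, was at 11.6, 13.8, 11.9, 10.7 and 10.5 FPKM in Foxd1-Cre 1 to 5, where wild types 1 to 6 had a lowest value of 6.24, a median of 6.96 and a highest of 9.02 FPKM. The Six2-Cre libraries held 13.4, 11.5 and 14.3 FPKM and wild types 7 to 9 held 8.13, 7.94 and 9.00 FPKM. No mutant library overlapped its wild types. The rises were 0.62 ± 0.09 (adjusted p = 0.000983) and 0.59 ± 0.10 (adjusted p = 0.0126), and their difference was 0.03 with a 95% interval from -0.26 to 0.31.

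Fabp7, a fatty acid binding protein of radial glia and early Schwann cells, rose in the Six2-Cre kidneys, with 7.25, 7.6 and 4.88 FPKM against 1.35, 1.01 and 0.691 FPKM in wild types 7 to 9 (1.90 ± 0.19, adjusted p = 0.00306). These wild-type values rested on about 3 to 7 reads each. In Foxd1-Cre 1 to 5 it was at 2.48, 2.15, 1.87, 4.12 and 2.83 FPKM, beside a lowest value of 2.22, a median of 2.53 and a highest of 2.91 FPKM in wild types 1 to 6 (0.03 ± 0.13, adjusted p = 0.913). The wild types of the 2 sets did not overlap for this gene. Fabp7 was one of the members whose change differed between the mutants, by -1.87 ± 0.23 (Foxd1-Cre minus Six2-Cre, adjusted p = 0.000262).

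Erbb3, the neuregulin receptor of Schwann cell precursors, did not pass in either comparison (0.10 ± 0.11 and -0.24 ± 0.10). Sox10 was at 2.37, 0.514 and 1.67 FPKM in Six2-Cre 1 to 3 and at 0.169, 0.177 and 0.610 FPKM in wild types 7 to 9, so the groups overlapped, and the change without the filter was 0.88 ± 0.31 (adjusted p = 0.154). In the Foxd1-Cre libraries Sox10 ran from 0.307 to 0.986 FPKM and in wild types 1 to 6 from 0.0661 to 0.946 FPKM. Of Foxd3, a crest specifier, Cdh19, an adhesion molecule of Schwann cell precursors, and S100b, a calcium binding protein of mature glia, none passed without the filter in either comparison. In Six2-Cre Foxd3 averaged 0.347 FPKM beside 0.08 FPKM in wild types 7 to 9, Cdh19 0.37 beside 0.108 FPKM and S100b 0.0413 beside 0.117 FPKM. For all of these the groups overlapped, with at most about 14 reads in any library of that set.

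A further 17 glial and crest genes, 11 of them tested, did not rise together either. In Foxd1-Cre kidneys 0 rose (also 0 at an unadjusted p under 0.05 in limma) and 4 fell, among them Mbp, a myelin protein (-0.33 ± 0.06), and in Six2-Cre kidneys 1 rose (Ets1, 0.46 ± 0.05, a transcription factor that endothelial cells also make) and 4 fell, among them Mbp (-0.82 ± 0.12). Of all genes tested 8.45% rose and 4.82% fell in Foxd1-Cre, and 7.93% rose and 5.84% fell in Six2-Cre. Among all 17 without the filter 0 rose and 4 fell in Foxd1-Cre, and 1 rose and 2 fell in Six2-Cre. Of the 6 genes below the filter, 4 lay wholly above wild types 7 to 9 in the Six2-Cre libraries and 0 wholly below. In Foxd1-Cre 0 of the 6 lay wholly above their wild types and 0 wholly below. The share of all genes tested that lay wholly above was 18% in Six2-Cre and 6.89% in Foxd1-Cre. Those shares cover genes that passed the filter, so the 6 cannot be compared with them directly. The 4 in Six2-Cre, named after their values were seen, were Egr2 (a mean of 1.09 FPKM beside 0.279 FPKM), Sox2 (0.524 beside 0.0519 FPKM), Dhh (0.441 beside 0.0916 FPKM) and Pax3 (0.768 beside 0.427 FPKM).

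Tubb3 and Gap43 had the largest changes of all members tested with stromal beta-catenin, while the pan-neuronal genes as a group were mixed. Of the 10 pan-neuronal members tested, 4 rose (Tubb3, Gap43, Syt1 and Prph), 1 fell (Stmn2) and 5 were not called in Foxd1-Cre kidneys (median 0.30), while in Six2-Cre kidneys 6 rose (Tubb3, Gap43, Nefm, Stmn2, Snap25 and Syt1), 0 fell (also 0 at an unadjusted p under 0.05 in limma) and 4 were not called (median 0.79). Over all genes tested 8.45% rose and 4.82% fell in Foxd1-Cre, and 7.93% rose and 5.84% fell in Six2-Cre. Without the filter 4 rose and 1 fell among all 14 in Foxd1-Cre, against 6.18% and 3.47% of all genes. In Six2-Cre 7 then rose, against 5.58% of all genes, where Elavl3 and Stmn4 were added and Syt1 was lost (adjusted p = 0.0513).

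Tubb3 (ENSMUSG00000062380, GRCm38 chromosome 8, 123411424 to 123422015, plus strand, overlapping Gm20388 on the same strand), the neuronal beta-tubulin, was at 22.1, 17.4, 22.1, 23.8 and 26.5 FPKM in Foxd1-Cre 1 to 5. In wild types 1 to 6 the lowest value was 1.45, the median 2.04 and the highest 2.28 FPKM. The mean was thus 11.6-fold higher, at 22.4 FPKM (SD 3.3, n = 5) beside 1.93 FPKM (SD 0.362, n = 6), and the lowest mutant library stood far above the highest wild type (2.99 ± 0.11, adjusted p = 5.45e-09). Six2-Cre kidneys held 5.45, 7.10 and 6.13 FPKM and wild types 7 to 9 held 1.37, 1.93 and 1.81 FPKM, again without overlap, a 3.66-fold rise (1.42 ± 0.13, adjusted p = 0.0021). The stromal rise exceeded the progenitor rise by 1.57 ± 0.17 (adjusted p = 2.86e-05).

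Gap43 (ENSMUSG00000047261, GRCm38 chromosome 16, 42248442 to 42340651, minus strand, overlapping Mir6540) was at 52.0, 49.1, 55.5, 61.8 and 54.2 FPKM in Foxd1-Cre 1 to 5, beside a lowest value of 9.81, a median of 10.9 and a highest of 14.6 FPKM in wild types 1 to 6. The mean rose 4.77-fold, to 54.5 FPKM (SD 4.74, n = 5), the highest level of any member in any group (2.165 ± 0.09, adjusted p = 1.62e-08). In Six2-Cre 1 to 3 it stood at 18.3, 23.0 and 25.3 FPKM against 5.99, 7.94 and 7.65 FPKM, a 3.09-fold rise (1.5 ± 0.15, adjusted p = 0.0026). Neither mutant overlapped its wild types. The difference between the rises was 0.67 ± 0.17 (adjusted p = 0.0301), and it was not called without Six2-Cre 1 or 2 or wild type 8 or 9, nor without Foxd1-Cre 4 and 5 together, with an adjusted p of up to 0.101.

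Stmn2 (ENSMUSG00000027500, GRCm38 chromosome 3, 8509360 to 8561606, plus strand, no overlapping gene) moved in opposite directions. It was at 2.90, 4.98, 5.93, 4.65 and 5.68 FPKM in Foxd1-Cre 1 to 5, and wild types 1 to 6 lay between 9.25 and 11 FPKM with a median of 10.2 FPKM. In Six2-Cre 1 to 3 it was at 10.9, 13.3 and 15.5 FPKM against 6.79, 8.70 and 5.57 FPKM in wild types 7 to 9. The groups were separate in both comparisons, below the wild types in the first and above them in the second. The fall was -0.97 ± 0.13 (adjusted p = 0.000265) and the rise 0.83 ± 0.18 (adjusted p = 0.03). They differed by -1.80 ± 0.22 (adjusted p = 0.000157). The rise in Six2-Cre was no longer called without Six2-Cre 2 or 3 or wild type 7 or 9 (adjusted p up to 0.0932), while the difference kept its call each time.

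**Figure D2:**
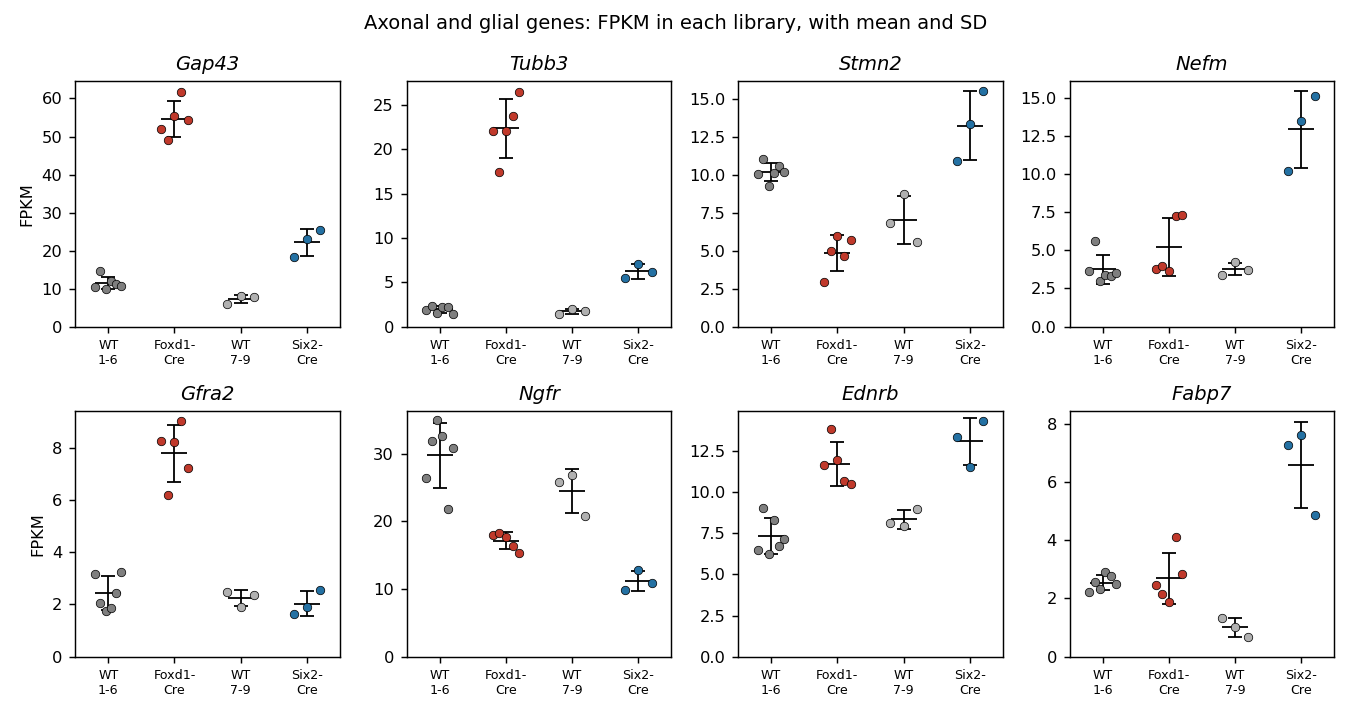
FPKM (y axis, linear, a scale of its own in each panel) of 5 axonal or receptor genes and 3 glial or crest genes in each library, with points for libraries, a horizontal dash for the group mean and bars for the SD. Tubb3 and Gap43 stand highest in Foxd1-Cre, Stmn2 lies below its wild types in Foxd1-Cre and above them in Six2-Cre, and Gfra2 is highest in Foxd1-Cre.

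The neurofilament genes, which build the axonal cytoskeleton, followed another pattern. Nefm was at 10.2, 13.5 and 15.2 FPKM in Six2-Cre 1 to 3 and at 3.38, 4.22 and 3.72 FPKM in wild types 7 to 9, a 3.43-fold rise without overlap (1.53 ± 0.15, adjusted p = 0.00264). In Foxd1-Cre 1 to 3 it stood at 3.80, 3.95 and 3.66 FPKM and in Foxd1-Cre 4 and 5 at 7.25 and 7.34 FPKM, while wild types 1 to 6 ran from 2.99 to 5.61 FPKM with a median of 3.45 FPKM. Only libraries 4 and 5 lay above all 6 wild types, and the change over the 5 libraries was 0.35 ± 0.19 (adjusted p = 0.284). The difference between the mutants for Nefm was -1.18 ± 0.24 (adjusted p = 0.00343). Nefl, its neighbour on chromosome 14 whose span it overlaps on the opposite strand, was not called in either comparison (-0.01 ± 0.13 and 0.39 ± 0.20). Its Foxd1-Cre values were 3.46, 3.45 and 3.34 FPKM in libraries 1 to 3 and 5.48 and 6.01 FPKM in libraries 4 and 5, on either side of the wild-type range of 4.04 to 4.56 FPKM. Prph, peripherin, the intermediate filament of peripheral neurons, was at 1.01, 0.340, 0.997, 2.10 and 0.895 FPKM in Foxd1-Cre 1 to 5, where wild types 1 to 6 ran from 0.0167 to 0.384 FPKM with a median of 0.113 FPKM. All but library 2 lay above the wild types (0.78 ± 0.18, adjusted p = 0.012). In Six2-Cre Prph was at 0.511, 1.13 and 0.748 FPKM against 0.0914, 0.383 and 0.101 FPKM, above its wild types but not called (0.59 ± 0.19, adjusted p = 0.0946).

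Of the synaptic vesicle genes, Syt1, the calcium sensor of transmitter release, rose in both mutants. It was at 0.976, 0.864, 0.929, 1.00 and 1.33 FPKM in Foxd1-Cre 1 to 5 and at 0.267 to 0.659 FPKM in wild types 1 to 6, with a median of 0.573 FPKM (0.40 ± 0.08, adjusted p = 0.00611). Six2-Cre 1 to 3 held 1.86, 1.15 and 2.07 FPKM and wild types 7 to 9 held 0.375, 0.552 and 0.815 FPKM (0.76 ± 0.19, adjusted p = 0.0461). Snap25, part of the vesicle fusion machinery, was at 1.31, 0.704 and 1.72 FPKM in Six2-Cre against 0.189, 0.279 and 0.288 FPKM in wild types 7 to 9 (0.82 ± 0.20, adjusted p = 0.043), and in Foxd1-Cre its change was 0.19 ± 0.11 (adjusted p = 0.313). No Six2-Cre library overlapped its wild types for Syt1 or Snap25. Both of these Six2-Cre calls lay close to the threshold, and reached adjusted p of 0.136 (Syt1, without Six2-Cre 3) and 0.119 (Snap25, without Six2-Cre 1).

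Elavl4, an RNA-binding protein of young neurons, had a wild-type mean of 6.58 FPKM in the first set (SD 1.85, n = 6) and 8.6 FPKM in the second (SD 3.81, n = 3), and its changes of -0.17 ± 0.17 and -0.53 ± 0.44 were within the spread of the libraries. Stmn3, a relative of Stmn2, was not called in either comparison (0.24 ± 0.16 and 0.65 ± 0.28). Of the 4 pan-neuronal members below the filter, Elavl3 and Stmn4 passed in Six2-Cre when the filter was dropped (0.54 ± 0.12, adjusted p = 0.0497, and 0.86 ± 0.14, adjusted p = 0.0175). Stmn4 was at 0.723, 1.48 and 1.10 FPKM in Six2-Cre 1 to 3 and at 0.141 to 0.151 FPKM, about 1 read each, in wild types 7 to 9. Mapt, the microtubule protein tau, and Ina, another neuronal intermediate filament, did not pass in either comparison.

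The 33 other neuronal genes, chosen with earlier results of these data known, moved in both directions. Of the 25 tested, 7 rose and 4 fell in Foxd1-Cre, and 7 rose and 2 fell in Six2-Cre. Of all genes tested 8.45% rose and 4.82% fell in Foxd1-Cre, and 7.93% rose and 5.84% fell in Six2-Cre. Among all 33 without the filter 10 rose and 4 fell in Foxd1-Cre, and 7 rose and 2 fell in Six2-Cre. The genes with the smallest p-values in Foxd1-Cre were Tagln3, an actin-associated protein of neurons, with a mean of 16.4 FPKM (SD 1.61, n = 5) beside 5.97 FPKM (SD 0.874, n = 6), up by 1.33 ± 0.09 (adjusted p = 1.22e-06), and Dpysl3, a growth cone protein, with 39.8 FPKM (SD 4.32, n = 5) beside 15.9 FPKM (SD 2.11, n = 6), up by 1.27 ± 0.09 (adjusted p = 2.4e-06). Both also rose in Six2-Cre, Tagln3 by 0.72 ± 0.14 (adjusted p = 0.0222) and Dpysl3 by 1.144 ± 0.09 (adjusted p = 0.00162). Dcx, a microtubule protein of migrating neurons, fell in both mutants. Its change was -0.76 ± 0.11 in Foxd1-Cre (adjusted p = 0.000499) and -2.71 ± 0.10 in Six2-Cre (adjusted p = 0.000129). In Six2-Cre the summed level of the 10 nephron progenitor markers was 192 to 194 FPKM, against 378 to 425 FPKM in wild types 7 to 9. The part of these markers in the fall of Dcx was not tested.

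The noradrenergic genes rose together in the Six2-Cre kidneys. There 8 of 8 rose, where 7.93% of all genes tested did, with a median change of 1.55. Each Six2-Cre library lay above all 3 wild types for each of the 8 genes. All but Ddc passed the filter only because mutant libraries were counted, which builds part of the rises and of this separation in. Neither can therefore be compared directly with the share of all genes tested, which was 18% for upward separation. Without the filter 7 of the 8 passed, against 5.58% of all genes (Ddc was lost at an adjusted p of 0.0673). In Foxd1-Cre kidneys 3 of 8 rose (Th, Dbh and Hand2), where 8.45% of all genes tested did. There 0 fell (also 0 at an unadjusted p under 0.05 in limma) and 5 were not called, with a median change of 0.80. Without the filter 2 of 8 rose there, against 6.18% of all genes, and Dbh was not called (adjusted p = 0.0535). The summed level of the 8 genes was 29.5, 18.0 and 36.5 FPKM in Six2-Cre 1 to 3 against 2.52, 5.53 and 4.06 FPKM in wild types 7 to 9. It was 8.00, 9.36, 5.90, 20.2 and 21.8 FPKM in Foxd1-Cre 1 to 5 and 3.08 to 6.32 FPKM in wild types 1 to 6.

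The promoters of Th, Chgb and Dbh are shown because these genes carried the largest noradrenergic changes, and that of Tubb3 because it had the largest change of all members. Each is the 250 bases before the transcription start in the RefSeq table for GRCm38.p6, written 5′ to 3′ on the strand of the gene, and the capitals mark the cAMP response element TGACGTCA, which is its own reverse complement. They cover chr7:142899996-142900245 on the minus strand (Th), chr2:132781392-132781641 on the plus strand (Chgb), chr2:27165257-27165506 on the plus strand (Dbh) and chr8:123411303-123411552 on the plus strand (Tubb3).

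Th: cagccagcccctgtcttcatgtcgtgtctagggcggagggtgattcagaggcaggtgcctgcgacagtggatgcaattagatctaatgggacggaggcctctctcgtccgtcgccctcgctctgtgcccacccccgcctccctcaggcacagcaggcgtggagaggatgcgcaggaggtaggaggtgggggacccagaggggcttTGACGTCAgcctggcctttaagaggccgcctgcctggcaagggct

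Chgb: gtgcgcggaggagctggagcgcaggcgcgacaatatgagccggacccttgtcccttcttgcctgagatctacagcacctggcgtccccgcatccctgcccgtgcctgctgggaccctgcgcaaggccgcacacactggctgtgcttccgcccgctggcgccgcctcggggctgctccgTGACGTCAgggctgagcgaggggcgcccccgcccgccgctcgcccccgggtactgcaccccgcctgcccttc

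Dbh: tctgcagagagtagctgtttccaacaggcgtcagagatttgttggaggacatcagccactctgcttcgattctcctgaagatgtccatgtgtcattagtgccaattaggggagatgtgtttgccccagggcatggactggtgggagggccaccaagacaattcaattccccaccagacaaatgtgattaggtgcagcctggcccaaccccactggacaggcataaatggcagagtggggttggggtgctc

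Tubb3: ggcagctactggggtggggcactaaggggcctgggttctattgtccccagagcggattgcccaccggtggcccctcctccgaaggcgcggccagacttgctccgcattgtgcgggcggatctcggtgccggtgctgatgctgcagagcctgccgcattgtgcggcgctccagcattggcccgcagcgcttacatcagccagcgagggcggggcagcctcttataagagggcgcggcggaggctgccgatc

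The table held 25 promoters for 20 of the 32 members, each running from 250 bases before to 50 bases after the start. TGACGTCA was found in 3 of the 25 (12%), those of Th (its first base 45 bases before the start), Chgb (72 bases before) and Foxd3, and in 1.79% of all 32851 promoters of the same length. The T-cell factor motif CTTTGAT, searched on both strands, was in 1 member promoter (Stmn3, 4%) and in 3.73% of all, and its second form CTTTGAA was in 1 (Ddc, 4%) and in 5.14% of all. The E-box CATCTG, searched on both strands, was in 6 of the 25 (24%), which belong to Elavl4, Fabp7, Hand2 and Stmn3, and in 17.2% of all. The paired homeodomain site, searched on both strands, was in 0 of the 25 and in 0.487% of all. The upstream windows of 2 Elavl4 promoters overlap and hold 1 and the same match, which is counted in both. These are matches of letters and do not show binding.

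Th (ENSMUSG00000000214, GRCm38 chromosome 7, 142892752 to 142931128, minus strand, no overlapping gene), which sets the pace of noradrenaline synthesis, was at 3.77, 1.25 and 4.30 FPKM in Six2-Cre 1 to 3. Wild types 7 to 9 held 0.0969, 0.1 and 0 FPKM, or at most about 1 read each, and no fold is given. All 3 mutant libraries, with about 14 to 49 reads each, stood above them (1.85 ± 0.33, adjusted p = 0.0174). In Foxd1-Cre 1 to 5 Th was at 0.699, 0.670, 0.182, 2.76 and 2.47 FPKM, and in wild types 1 to 6 it had a median of 0.0926 and a highest value of 0.192 FPKM. Library 3 overlapped the wild types and the other 4 did not (0.96 ± 0.27, adjusted p = 0.0352).

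Dbh (ENSMUSG00000000889, GRCm38 chromosome 2, 27165233 to 27183200, plus strand, no overlapping gene), which turns dopamine into noradrenaline, was at 5.55, 3.65 and 7.65 FPKM in Six2-Cre 1 to 3 against 0.0725, 0.449 and 0.312 FPKM in wild types 7 to 9. This was the largest change of any member in that comparison (2.34 ± 0.25, adjusted p = 0.00324). Foxd1-Cre 1 to 5 held 0.732, 0.844, 0.472, 4.99 and 4.03 FPKM, all above wild types 1 to 6, which had a median of 0.118 and a highest value of 0.370 FPKM (1.23 ± 0.35, adjusted p = 0.0384). Libraries 4 and 5 stood far above the other 3. Ddc, the decarboxylase that kidney epithelium also makes, was at 5.27, 3.90 and 5.12 FPKM in Six2-Cre against 1.19, 2.99 and 2.08 FPKM (0.94 ± 0.23, adjusted p = 0.048), and was not called in Foxd1-Cre (0.15 ± 0.08, adjusted p = 0.284).

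Chga and Chgb encode chromogranins, the matrix proteins of secretory granules. In Six2-Cre 1 to 3 Chga was at 1.82, 1.54 and 3.83 FPKM against 0.0857, 0.268 and 0.374 FPKM (1.40 ± 0.26, adjusted p = 0.0209). Chgb was at 4.58, 1.37 and 5.19 FPKM against 0.179, 0.0619 and 0.194 FPKM (1.92 ± 0.37, adjusted p = 0.0214). Both were separate from the wild types. In Foxd1-Cre 1 to 5 Chga was at 0.391, 0.594, 0.198, 2.29 and 2.49 FPKM and Chgb at 0.479, 1.37, 0.276, 3.95 and 3.41 FPKM, with highest wild-type values of 0.401 and 0.583 FPKM. Libraries 4 and 5 were again highest, and neither gene was called (0.75 ± 0.27, adjusted p = 0.0987, and 1.00 ± 0.33, adjusted p = 0.0727).

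The transcription factors of the sympathetic lineage gave a similar order. Hand2 was at 3.15, 2.84 and 4.83 FPKM in Six2-Cre 1 to 3 against 0.151, 0.563 and 0.513 FPKM in wild types 7 to 9 (1.70 ± 0.21, adjusted p = 0.00503). It was at 1.08, 1.15, 0.884, 1.90 and 3.00 FPKM in Foxd1-Cre 1 to 5, all above the highest of wild types 1 to 6 at 0.873 FPKM, library 3 by the least (0.86 ± 0.20, adjusted p = 0.0154). Hand2 overlaps Hand2os1 on the opposite strand, and the sources used here do not say whether reads were assigned by strand. Phox2a, which switches on Th and Dbh, was at 3.11, 1.60 and 2.89 FPKM in Six2-Cre against 0.509, 0.436 and 0.116 FPKM (1.37 ± 0.22, adjusted p = 0.0129). In Foxd1-Cre it was at 0.895, 0.882, 0.605, 1.51 and 2.16 FPKM against 0.399 to 0.828 FPKM (0.43 ± 0.15, adjusted p = 0.094). Isl1 was at 2.29, 1.81 and 2.74 FPKM in Six2-Cre against 0.237, 0.666 and 0.468 FPKM (1.17 ± 0.17, adjusted p = 0.00906). Its Foxd1-Cre values of 1.21, 1.11, 1.17, 0.600 and 1.62 FPKM lay within the wild-type range, which reached 2.30 FPKM in wild type 2 (0.35 ± 0.24, adjusted p = 0.42).

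**Figure D3:**
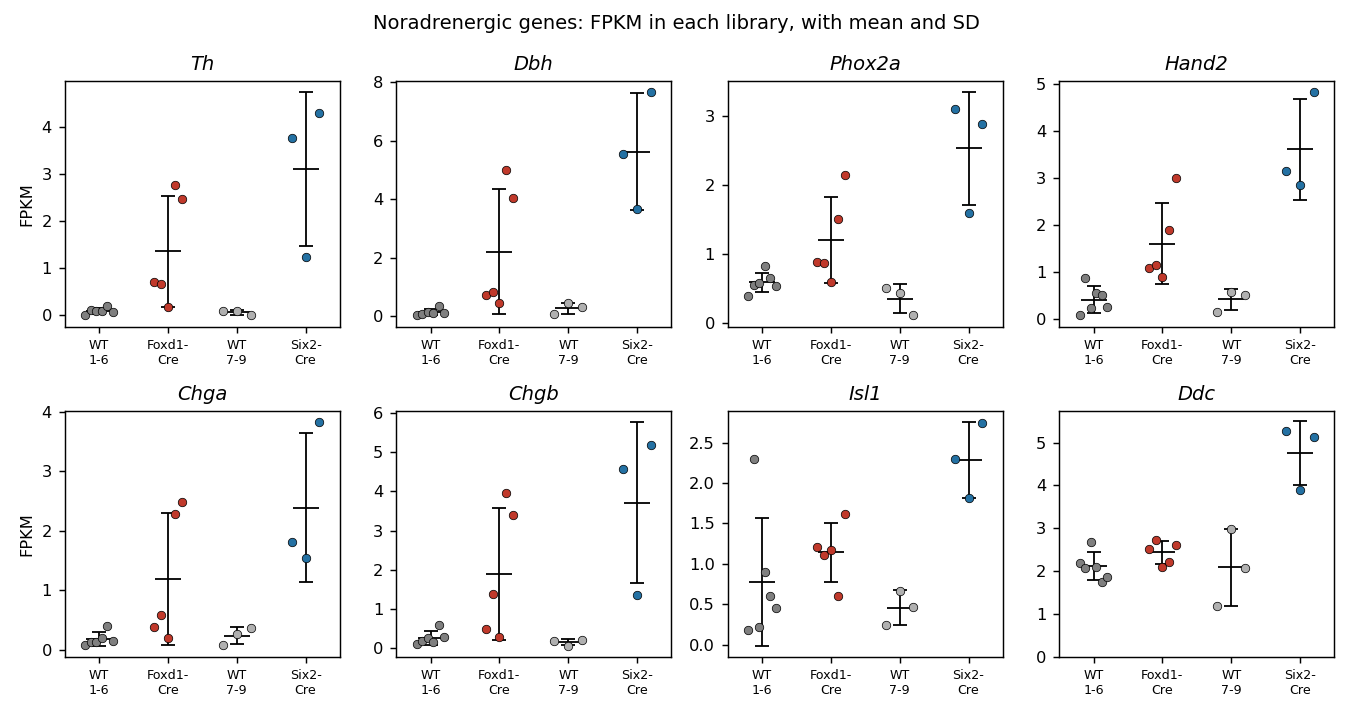
FPKM (y axis, linear, a scale of its own in each panel) of the 8 noradrenergic genes in each library, with points for libraries, a horizontal dash for the group mean and bars for the SD. Every Six2-Cre point lies above wild types 7 to 9, and Foxd1-Cre 4 and 5 stand apart from Foxd1-Cre 1 to 3 for Th, Dbh, Chga and Chgb.

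Foxd1-Cre 4 and 5 were the 2 highest of the 5 Foxd1-Cre libraries for 6 of the 8 noradrenergic genes, for 9 of the 14 pan-neuronal genes, for 2 of the 8 glial and crest genes and for 0 of the 2 receptors, in all 17 of 32 members. Over all 14014 genes that passed the filter this held for 1750. The labels give no feature that sets these libraries apart. When both were left out, a choice made after seeing the data, 7 members rose and 3 fell, where 765 and 354 of 13990 genes did. Th (0.46 ± 0.12, adjusted p = 0.0462) and Dbh (0.55 ± 0.10, adjusted p = 0.00958) kept their calls with smaller changes, Hand2 (adjusted p = 0.0757) and Syt1 (adjusted p = 0.0509) lost theirs, and Nefl was then called lower (-0.25 ± 0.05, adjusted p = 0.0136). Tubb3 (2.88 ± 0.12), Gap43 (2.10 ± 0.10), Stmn2 (-1.04 ± 0.15) and Gfra2 (1.33 ± 0.16) changed little. Leaving out library 4 or 5 alone ended the calls of Th (adjusted p = 0.0669 and 0.0842) and Dbh (adjusted p = 0.0652 and 0.0921), as did leaving out any of wild types 1, 2, 3, 4 and 6. In Six2-Cre the calls of Th and Chgb were lost on leaving out Six2-Cre 1 or 3 or any wild type (adjusted p up to 0.0603 and 0.0712), that of Chga without wild type 7 or 8, that of Phox2a without Six2-Cre 3, and that of Ddc in 5 of 6 such fits. Dbh, Hand2 and Isl1 kept theirs in all 6.

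Among 20 other sympathetic and chromaffin genes, 14 were tested. In Six2-Cre 5 rose and 5 fell, where 7.93% and 5.84% of all genes tested did. Without the filter 5 of the 20 rose and 3 fell there. Among those that rose, named after their values were seen, were Insm1 (1.10 ± 0.15), a transcription factor of sympathetic precursors, Rgs4 (1.75 ± 0.26), a regulator of G protein signalling, and Cartpt (1.42 ± 0.25), a neuropeptide precursor. All of these were under 1 FPKM in every wild type and passed the filter only through mutant libraries. The falls with the smallest p-values were those of Eya1 (-1.54 ± 0.06), which nephron progenitors also express, and Pnmt, the enzyme that makes adrenaline, with 0 FPKM listed for each Six2-Cre library and a mean of 1.92 FPKM (SD 0.534, n = 3) for wild types 7 to 9. In Foxd1-Cre 2 rose and 2 fell, among them Gata2 (1.25 ± 0.21) and Npy (-0.91 ± 0.13), a peptide of sympathetic neurons. Of all genes tested 8.45% rose and 4.82% fell in Foxd1-Cre, and without the filter 2 of the 20 rose and 3 fell. Of 7 cholinergic and enteric genes 2 were tested, and Tlx2, a homeobox gene of enteric neurons, rose in both mutants (0.61 ± 0.17, adjusted p = 0.038, and 1.40 ± 0.13, adjusted p = 0.00191). Tlx2 too passed the filter only through mutant libraries, with its highest wild-type value at 0.437 FPKM.

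The 2 receptors for GDNF family ligands parted. Gfra2 (ENSMUSG00000022103, GRCm38 chromosome 14, 70890120 to 70979838, plus strand, no overlapping gene), the co-receptor for neurturin, was at 8.26, 6.21, 8.23, 9.03 and 7.24 FPKM in Foxd1-Cre 1 to 5. Wild types 1 to 6 lay between 1.75 and 3.26 FPKM with a median of 2.26 FPKM. The groups were well apart, and the mean was 3.21-fold higher (1.37 ± 0.13, adjusted p = 2.1e-05). In Six2-Cre 1 to 3 it was at 1.64, 1.90 and 2.56 FPKM against 2.48, 1.91 and 2.36 FPKM (-0.11 ± 0.15, adjusted p = 0.684). The difference between the mutants was 1.48 ± 0.20 (adjusted p = 0.000157). Gfra3, the co-receptor for artemin on sympathetic and sensory neurons, was not called in either (-0.24 ± 0.18 and 0.25 ± 0.13). Its wild types ran from 2.67 to 7.16 FPKM in the first set and from 1.80 to 1.98 FPKM in the second.

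The effects of the 2 drivers were compared gene by gene, and 11% of the 13810 genes tested in both comparisons differed. Without the filter 3 of all 32 members differed upward and 4 downward, against 4.01% and 3.87% of 18580 genes. Of the 24 members 3 differed upward, with a higher change in Foxd1-Cre (Tubb3, Gfra2 and Gap43), where 5.76% of all genes did, and 4 differed downward (Stmn2, Fabp7, Nefm and Phox2a), where 5.24% did. Phox2a, the weakest of them, differed by -0.93 ± 0.27 (adjusted p = 0.0455) and was called in the fit with all libraries but not on leaving out most of them, with an adjusted p of up to 0.144. The 8 noradrenergic genes all had negative differences, between -1.10 and -0.65, and 7 of them did not pass. Th, for example, differed by -0.89, with a 95% interval from -1.80 to 0.02, so neither a shared change nor a smaller one in Foxd1-Cre is shown for it. Without Foxd1-Cre 4 and 5 the downward count was 9, with Th, Dbh, Chga, Chgb and Hand2 added, and the upward count was 2, with Gap43 no longer called (0.61 ± 0.18, adjusted p = 0.0529). Over all 13804 genes in that fit 665 differed downward and 717 upward. Without Six2-Cre 2 alone the downward count was 7, where 526 of 13796 genes differed downward. Driver and library set cannot be told apart here, because each mutant was sequenced in 1 set.

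**Figure D4:**
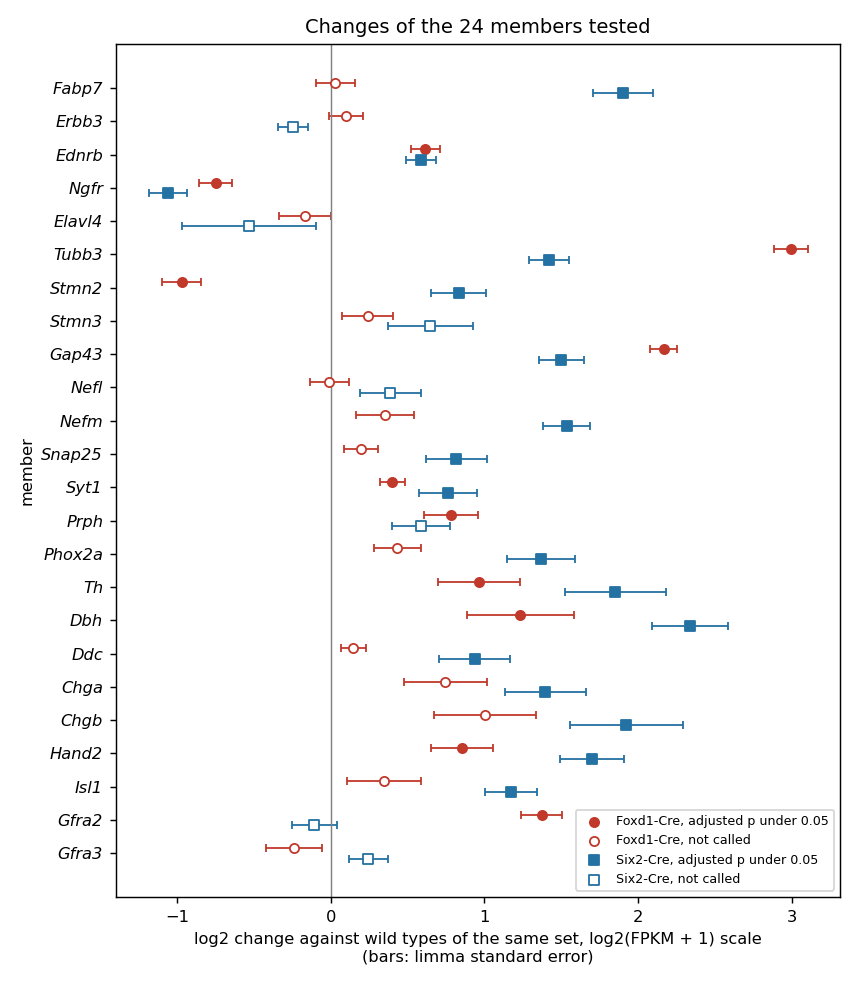
Change of each of the 24 tested members against the wild types of the same set (x axis, log2 change on the log2(FPKM + 1) scale, bars show the limma standard error), with circles for Foxd1-Cre and squares for Six2-Cre, filled where the adjusted p was under 0.05. Tubb3, Gap43 and Gfra2 lie farther right in Foxd1-Cre, the noradrenergic genes lie farther right in Six2-Cre, and Stmn2 lies on opposite sides of 0.

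Signals that attract or feed crest cells and axons were read from 22 genes, 20 of them tested. In Foxd1-Cre 7 rose and 4 fell, where 8.45% and 4.82% of all genes tested did, and without the filter 8 of the 22 rose and 3 fell. Bdnf, a neurotrophin, had a mean of 1.94 FPKM (SD 0.307, n = 5) beside 0.148 FPKM (SD 0.0261, n = 6), up by 1.35 ± 0.07 (adjusted p = 8.18e-08), and Ntn1, the axon guidance cue netrin, fell by 1.62 ± 0.10 on the log2 scale (adjusted p = 8.03e-07). In Six2-Cre 2 rose and 3 fell, among them Sema3d (-1.36 ± 0.06, adjusted p = 0.000234) and again Ntn1 (-1.52 ± 0.14, adjusted p = 0.00204). Of all genes tested 7.93% rose and 5.84% fell in Six2-Cre, and without the filter 2 of the 22 rose and 3 fell. Bdnf there averaged 0.482 FPKM (SD 0.0706, n = 3) beside 0.257 FPKM (SD 0.209, n = 3) and was not called (adjusted p = 0.376). It was under 1 FPKM in every wild type and passed the filter only through mutant libraries.

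Markers of other tissues that a dissection can carry along were read in the same libraries. The 9 sensory ganglion genes summed to 0.428 to 1.20 FPKM and the 8 spinal cord genes to 0 to 0.788 FPKM over all libraries, and every one of these 17 genes was under 1 FPKM in every library. Of 9 adrenal cortex genes 3 were tested. In Six2-Cre Mc2r, the receptor for corticotropin, averaged 6.77 FPKM (SD 1.15, n = 3) beside 2.14 FPKM (SD 0.289, n = 3) in wild types 7 to 9 (1.30 ± 0.14, adjusted p = 0.0032). Akr1b7 rose by 0.87 ± 0.14 (adjusted p = 0.011). Star, the remaining gene tested, named after its values were seen, was not called (-0.13 ± 0.15, adjusted p = 0.625). The 9 genes summed to 11 to 15.3 FPKM in Six2-Cre and 5.15 to 5.70 FPKM in wild types 7 to 9, and Mc2r and Akr1b7 made up most of the Six2-Cre sum. Cyp11a1 and Nr5a1, chosen by name from the genes below the filter, were not tested. In Six2-Cre Cyp11a1 averaged 0.0364 FPKM (SD 0.063, n = 3) beside 0.0352 FPKM (SD 0.0609, n = 3), and Nr5a1 0.156 FPKM (SD 0.022, n = 3) beside 0.102 FPKM (SD 0.0444, n = 3). In Foxd1-Cre the adrenal list summed to 6.02 to 6.85 FPKM against 6.96 to 10.7 FPKM in wild types 1 to 6. Of 4 gonad genes tested, Amhr2 rose in Foxd1-Cre (2.93 ± 0.27, adjusted p = 1.68e-05) and 0 rose in Six2-Cre (also 0 at an unadjusted p under 0.05 in limma).

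The vessel markers that were tested rose in the same Six2-Cre libraries as the noradrenergic genes. All 12 endothelial genes rose there, among them Pecam1 (0.76 ± 0.05) and Kdr (0.92 ± 0.07), and their summed level was 257 to 270 FPKM against 131 to 155 FPKM. All 8 mural genes tested rose as well, among them Pdgfrb (1.31 ± 0.05) and Abcc9 (1.56 ± 0.12), and the 10 mural genes listed summed to 170 to 194 FPKM against 78.1 to 89.2 FPKM. In Foxd1-Cre 4 of the 12 endothelial genes and 2 of the 8 mural genes rose, with sums that overlapped those of the wild types (210 to 271 against 199 to 241 FPKM, and 93.0 to 155 against 61.3 to 109 FPKM). The share of all genes tested that rose was 7.93% in Six2-Cre and 8.45% in Foxd1-Cre. Without the filter 11 of 12 endothelial and 8 of 10 mural genes rose in Six2-Cre, against 5.58% of all genes. In Foxd1-Cre 2 of 12 and 3 of 10 then rose, against 6.18%. The part of the vessel genes, of the adrenal genes and of Foxd1-Cre libraries 4 and 5 in the changes of the neural members was not tested.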

How the data were processed

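The authors deposited 1 table of FPKM values for 24432 gene IDs and 17 libraries. Per the submitters' processing notes, reads were handled with bcl2fastq 2.17.1.14 and Salmon on GRCm38 (mm10). The annotation release, the summary to genes, strand and any scaling are not given in the sources used here. Symbols and places came from the GENCODE annotation of GRCm38. The members and all gene lists were chosen with earlier results of these data known. Groups came from the sample titles. Tests were 2-sided, from limma (version 3.58.1, run under R 4.3.3) with trended variances and 1 fit per library set, and were tested on simulated data. The difference between the mutants added the squared errors of both fits. Each value of the members called, and of the highest member of each list, is given by library, and at most 2 genes by smallest p from each further list. Further genes are named where the text says that they were chosen by name or after their values were seen. Alternatives were pseudocounts of 0.1 and 0.5, no filter and a filter at 5 FPKM, 2 rescalings, all 9 wild types, a joint fit, no trend, a replicate block and leaving out each library. Some genes of the further lists are counted but not reported by name here.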

Additional observations from a re-analysis of the deposited data

Results flagged for a closer look

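Each of the 32 members was looked at in the 5 Foxd1-Cre libraries and in wild types 1 to 6 on the log2(FPKM + 1) scale, and 4 of these 64 pairs held a library far from the rest by Dixon's ratio, which chance gives in about 1 in 20 groups. Elavl3 was at 0.851 FPKM in Foxd1-Cre 5, Nefm at 5.61 FPKM in wild type 2, Syt1 at 0.267 FPKM in wild type 3 and Dbh at 0.370 FPKM in wild type 5. In 7 members the tested difference between the mutants (Foxd1-Cre change minus Six2-Cre change) passed: Tubb3 at 1.57, Gfra2 at 1.48 and Gap43 at 0.67 on the log2 scale, and Fabp7 at -1.87, Stmn2 at -1.80, Nefm at -1.18 and Phox2a at -0.93.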

How the results depend on the processing

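No member value that was called changed sign under any alternative run. Of 1494 member values under these alternatives 1388 kept their side of the threshold, 75 lost their call and 31 gained one. Among the 1388 were 18 that changed sign where neither value was called. With a filter at 5 FPKM, which tests fewer members, 4 rose in Foxd1-Cre, 5 rose in Six2-Cre and 2 differed downward between the mutants. Over all genes under that filter 777 of 10912, 903 of 10767 and 550 of 10749 did so. With all 9 wild types as controls 11 differed downward. Under that setting 3397 of all 14014 genes differed downward and 5108 upward, and the median difference of all genes was 0.12. Without Foxd1-Cre 4 and 5 together, chosen after seeing the data, 9 differed downward, where 665 of 13804 genes did. Leaving out 1 library gave 7 to 12 rises and 2 falls in Foxd1-Cre, 9 to 14 rises and 1 fall in Six2-Cre, and 2 to 3 upward and 3 to 7 downward differences. With the replicate number as a block, 6 members rose and 2 fell in Foxd1-Cre, where 926 and 499 of 13996 genes did. Th, Dbh and Prph were then not called (adjusted p = 0.0662, 0.0639 and 0.0602). The samples share only a number: deviations of same-numbered libraries correlated at 0.01 to 0.12, and 1 of the 5 numbers matched its own best. No paired analysis was possible for Six2-Cre because its numbers are not those of wild types 7 to 9. In the Six2-Cre set low values rest on few reads, and differences in genes under about 1 FPKM were often not detectable at that depth.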
